A study of Mus musculus with 6 samples.

Results

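Liver tumour, fetal and biliary markers were examined in mouse liver under a high-fat diet, comparing WT with TRIM24 C52/55A animals. The markers are 10 genes, taken by name from the 21528 genes listed in any of 6 libraries: *Afp*, *Gpc3*, *H19* and *Igf2*, which the fetal liver and liver tumours express, *Spp1*, *Sox9*, *Krt19* and *Epcam*, which mark bile duct cells and liver progenitors, and *Cdh1* and *Lgals1*, which code for the adhesion protein E-cadherin and the lectin galectin-1. They were chosen because mice that lack TRIM24 develop liver tumours. All 10 were found, and all 10 were above 0 in every library.

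RNA was sequenced from the livers of 3 WT and 3 TRIM24 C52/55A mice, 1 library per mouse. All 6 mice were labelled C57BL/6 (the knockin was made on C57Bl/6J), were 5 months old, and had spent 3 months on this diet, in which fat gave 60% of the calories. In the TRIM24 C52/55A mice, cysteines 52 and 55 of the E3 ubiquitin ligase TRIM24 were replaced by alanine in the endogenous gene. By the study's methods the knockin mice were homozygous and the controls were WT littermates. The change is in every cell of the body, so the livers do not separate an effect in hepatocytes from one elsewhere. The gene is kept with changed codons, so these mice are not the same model as mice that lack TRIM24. There was no chow-fed group and no tumour sample among the libraries, and whether any liver held a tumour is not given in the sources used here. TRIM24 C52/55A replicate 2 stood apart by some transcripts of adipocytes and by those of mesothelium, which are described with the biliary markers. Where leaving it out moved a count of called genes, that count is given too.

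A hepatocyte of the adult liver has switched off most of the genes that it used before birth. *Afp* and *H19* are switched off together in the weeks after birth, by repressors such as ZHX2, and both return in many hepatocellular carcinomas. Bile duct cells, or cholangiocytes, keep *Sox9*, *Krt19*, *Epcam* and *Spp1* throughout life. After injury these genes also appear in ductular cells with the properties of progenitors, and hepatocytes under stress can switch on *Sox9* and *Spp1*.

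Of the 10 markers, *Cdh1* was higher and *Lgals1* was lower in the TRIM24 C52/55A liver, and the other 8 were not called, 3 of them too low to be tested. *Cdh1* rose from a mean of 5.48 to 14.5 FPKM and *Lgals1* fell from 47.5 to 15.9 FPKM. FPKM are the fragments of a gene per kilobase of its transcript, relative to all mapped fragments of a library. The 12225 genes whose mean over the 6 libraries reached 0.5 FPKM were tested with limma on log2(FPKM + 1), and a gene was called when its p-value, adjusted by the Benjamini-Hochberg method over all of them, was under 0.05. Fold changes are on that log2 scale, TRIM24 C52/55A over WT, and are smaller than the true change where FPKM are low. Of the markers, 7 passed the filter on low values, and *Afp*, *H19* and *Igf2* did not. The 2 called were 1 higher and 1 lower, beside 7.72% of all genes tested that were called, 1.64% higher and 6.09% lower. The groups did not overlap for the same 2 markers, against 28.9% of all genes tested, 6.31% higher and 22.5% lower. An unadjusted p under 0.05 was found for 5 of the 7 markers and for 23.6% of all genes tested. Of the 7, 4 had a log2 fold change below 0, as did 65.5% of all genes tested. *Epcam*, counted in both, averaged under 0.5 FPKM in TRIM24 C52/55A livers and passed the filter through the WT group. The median log2 fold change of the 7 markers was -0.16, and that of all genes tested was -0.08.

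**Figure D1:**
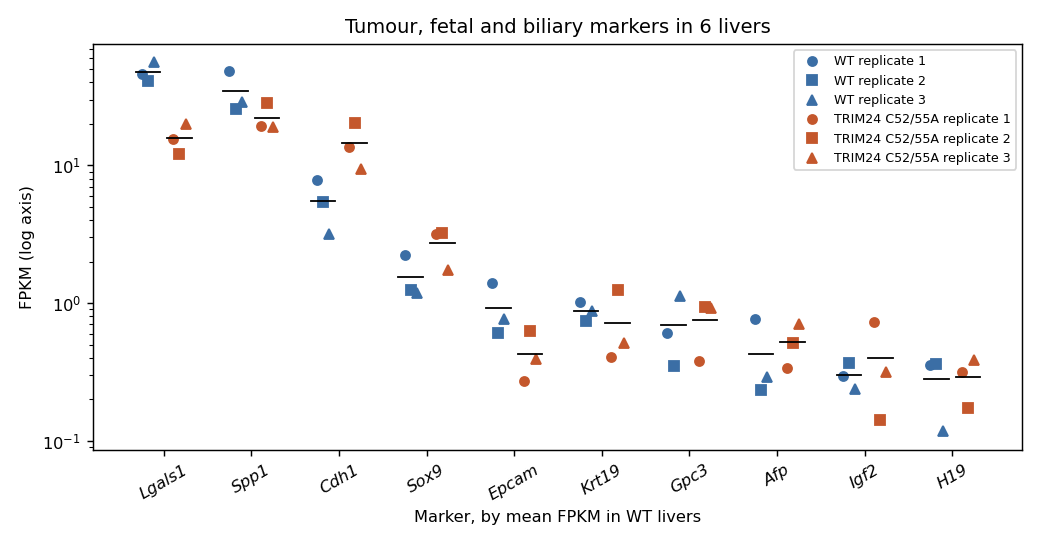
FPKM of the 10 markers (vertical log axis) in each of the 6 livers, ordered by their mean in WT livers. Each point is 1 library, with its shape giving the replicate number, and each black line is the mean of 3. The WT and TRIM24 C52/55A points are apart for *Lgals1* and *Cdh1* and overlap for the other 8 markers.

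The 2 called genes are shown by the opening of their coding sequences, so that the transcripts meant are plain. E-cadherin starts with a signal peptide that leads it to the cell surface, whereas galectin-1 has none and leaves the cell by another route. The sequences are from GENCODE M21 (GRCm38), 90 bases each on the + strand of the genome, with the start codon in capitals.
Cdh1: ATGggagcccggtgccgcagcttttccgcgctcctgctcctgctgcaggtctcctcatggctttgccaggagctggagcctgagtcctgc
Lgals1: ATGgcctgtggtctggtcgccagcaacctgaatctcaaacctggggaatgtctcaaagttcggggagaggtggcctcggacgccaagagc
The *Cdh1* stretch lies on 2 exons, chr8:106603495-106604328, at the start of a coding sequence for 884 residues. The *Lgals1* stretch lies on 3 exons, chr15:78926796-78929633, and the whole protein has 135 residues. No run of 50 bases of any *Cdh1* or *Lgals1* transcript occurs in a transcript of another gene in that annotation, and no other listed gene shares the interval of either in the files.

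*Cdh1* (ENSMUSG00000000303, chr8:106603351-106670246 on GRCm38) joins neighbouring epithelial cells, and in the liver it is strongest in hepatocytes around the portal vein and in bile ducts. WT replicates 1 to 3 measured 7.86, 5.43 and 3.16 FPKM, and the TRIM24 C52/55A livers, listed here and elsewhere in the same order of replicates, measured 13.5, 20.4 and 9.47 FPKM. Each TRIM24 C52/55A liver was above each WT liver, with the highest value in TRIM24 C52/55A replicate 2. The means were 5.48 ± 2.35 and 14.5 ± 5.52 FPKM (SD, n = 3 each), a ratio of 2.64. The log2 fold change was 1.26 (95% confidence interval 0.54 to 1.98, standard error 0.31), with an adjusted p of 0.0482 from limma. The exact two-sided permutation test gave p = 0.1, which is the smallest that 3 against 3 allows. The direction was the same in each of 15 alternative settings, with log2 fold changes from 0.97 to 1.52, but the call was close to its threshold and held in 6 of them. Of the 6 fits with 1 library left out, it held only without TRIM24 C52/55A replicate 3 (adjusted p = 0.0297, limma). The adjusted p was 0.0517 without WT replicate 1, 0.111 without WT replicate 2 and 0.143 without WT replicate 3, and 0.141 and 0.0821 without TRIM24 C52/55A replicates 1 and 2.

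*Lgals1* (ENSMUSG00000068220, chr15:78926725-78930465) makes galectin-1, a sugar-binding protein of stromal, endothelial and immune cells that many tumours produce. It had 45.8, 40.8 and 55.9 FPKM in WT and 15.4, 12.1 and 20.1 FPKM in TRIM24 C52/55A livers. The lowest WT liver was above the highest TRIM24 C52/55A liver. The means were 47.5 ± 7.70 and 15.9 ± 3.99 FPKM (SD, n = 3 each), so that WT had 2.99 times the level of TRIM24 C52/55A. The log2 fold change was -1.54 (95% confidence interval -1.95 to -1.13, standard error 0.18), with an adjusted p of 0.00318 from limma, and the exact two-sided permutation test again gave 0.1. All 15 alternatives kept the call, with log2 fold changes from -1.71 to -1.37 and adjusted p from 0.00134 to 0.0267 (limma).

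**Figure D2:**
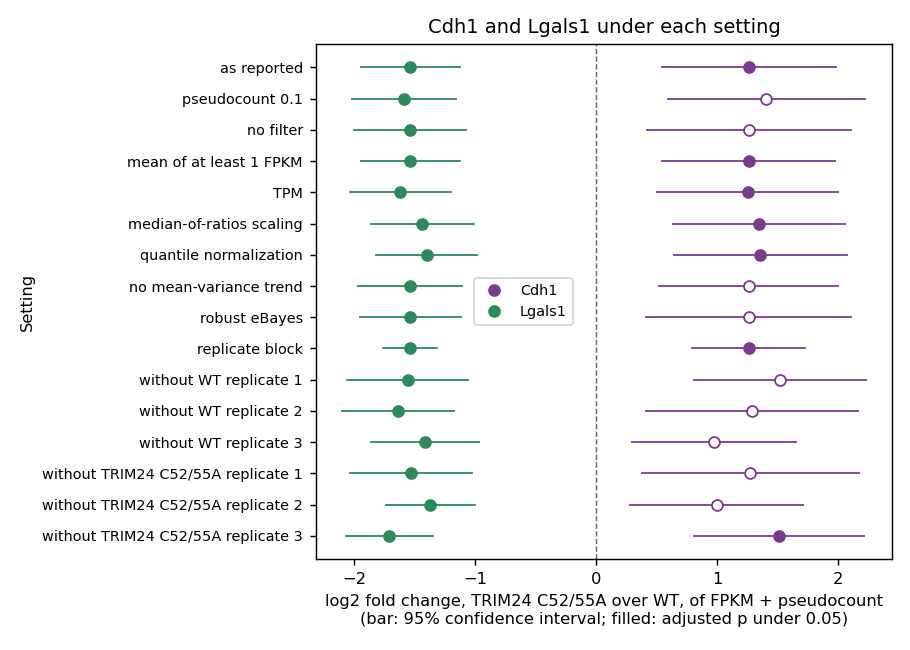
Log2 fold change of *Cdh1* and *Lgals1* (horizontal axis, TRIM24 C52/55A over WT) in the reported fit and under each of 15 alternative settings, with 95% confidence intervals. Filled points have an adjusted p under 0.05: all are filled for *Lgals1*, and for *Cdh1* the reported fit and 6 alternatives.

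Galectin-1 is made by cells other than hepatocytes, and the markers of such cells were read beside it. In whole liver, fewer cells of a type and less RNA per cell cannot be told apart. Of 20 macrophage genes, 18 were tested and 0 were called, while 5 had an unadjusted p under 0.05, beside 23.6% of all genes tested. With TRIM24 C52/55A replicate 2 left out, 7 of the 18 were called, all lower, and the median log2 fold change moved to -0.50. In that fit 10.5% of all genes tested were called, 8.52% lower, and the median over all of them was -0.10. The 7 included the complement genes *C1qa*, *C1qb* and *C1qc*, at -0.60, -0.54 and -0.52. With all libraries, all 18 had log2 fold changes below 0 (16 of 18 without TRIM24 C52/55A replicate 3), beside 65.5% of all genes tested, with a median of -0.30. The summed FPKM of the list were 399 to 477 in WT and 316 to 460 in TRIM24 C52/55A livers. Within the TRIM24 C52/55A group the macrophage sum was highest in replicate 2, at 460 FPKM. Of 16 stellate cell and fibroblast genes, 15 were tested and 0 were called, with 7 at an unadjusted p under 0.05, beside 23.6% of all genes tested. The median log2 fold change was -0.14, and the sums were 161 to 174 FPKM in WT and 140 to 198 FPKM in TRIM24 C52/55A livers. Leaving out TRIM24 C52/55A replicate 2 gave 5 calls of the 15, all lower, beside the same 8.52% of all genes, with a median of -0.31: the collagen genes *Col1a1*, *Col3a1* and *Col1a2* at log2 fold changes of -0.93, -0.83 and -0.74, *Tagln* at -0.67 and *Vim* at -0.57. Of 10 endothelial genes, with a median of -0.05, 1 was called, beside 7.72% of all genes tested. This gene, *Lyve1*, the hyaluronan receptor of sinusoidal and lymphatic endothelium, fell by 1.26 on the log2 scale (adjusted p = 0.0281 from limma). It was called in 9 of 15 alternatives, and not when any of the 3 WT libraries or TRIM24 C52/55A replicate 1 was left out. Without TRIM24 C52/55A replicate 2, 2 were called, as *Tek* joined it at 0.76. The part of these cells in the fall of *Lgals1* was not tested.

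The other galectins were examined next. Of 9 galectin and galectin-related genes listed, 6 were tested and 0 were called, with 2 at an unadjusted p under 0.05, beside 23.6% of all genes tested. All 6 lay below 0, beside 65.5% of all genes tested, with a median log2 fold change of -0.17. Of the 6, 5 lay below 0 with median-of-ratios scaling and without TRIM24 C52/55A replicate 1 or 3, and 4 with quantile normalization. The fit without TRIM24 C52/55A replicate 2 called 1, *Lgals3* at -0.62 (adjusted p = 0.0383, limma). *Lgals9*, the most abundant, had 360, 323 and 353 FPKM in WT and 284, 307 and 318 FPKM in TRIM24 C52/55A livers, a log2 fold change of -0.19 (adjusted p = 0.206, limma). *Lgals8*, a galectin that senses damaged endosomes, had a log2 fold change of -0.20 (adjusted p = 0.259, limma). For *Lgals1* the sign was negative under every scaling.

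The genes around *Cdh1* were those of epithelial junctions, 20 of which were tested. None was called by limma (0 of 20), and 5 had an unadjusted p under 0.05, beside 23.6% of all genes tested. Of the 20, 13 lay below 0 and 7 above, beside 65.5% of all genes below 0, and the median log2 fold change was -0.05. That direction followed the scaling: 4 lay below 0 and 16 above with both median-of-ratios scaling and quantile normalization, with medians of 0.05 and 0.08. Without TRIM24 C52/55A replicate 2, 1 was called, *Krt8* at -0.61, and without replicate 3 of that genotype 2 were, *Ocln* at 0.93 and *Cldn2* at -0.90. *Ocln*, the tight junction protein occludin, had 6.68, 6.43 and 3.92 FPKM in WT and 10.6, 12.4 and 7.73 FPKM in TRIM24 C52/55A livers. Its groups did not overlap, and its log2 fold change of 0.76, the highest of the list, had an adjusted p of 0.0653 (limma). *Gjb1* and *Gjb2*, the connexins of hepatocyte gap junctions, had log2 fold changes of 0.14 (adjusted p = 0.328) and -0.31 (adjusted p = 0.0901, limma). E-cadherin is stronger near the portal vein, so markers of the lobule's zones were also read. Of 10 periportal genes, 1 was called higher and 2 were called lower, beside 1.64% and 6.09% of all genes tested, and the median was -0.20; the 3 calls became 1 in 4 of the 6 fits with 1 library left out, those that left out a WT library or TRIM24 C52/55A replicate 1. *Cyp2f2*, a periportal cytochrome P450, rose by 0.66 on the log2 scale (adjusted p = 0.00623, limma) and was called in all 15 alternatives. *Aldh1b1* and *Hsd17b13*, at log2 fold changes of -0.93 and -0.44, were called in 3 and 5 of 15. Of 10 pericentral genes, 5 were called lower and 0 higher, beside 6.09% and 1.64% of all genes tested, with a median of -0.57: *Oat*, *Glul*, *Rhbg*, *Slc1a2* and *Cyp2e1*, with log2 fold changes from -1.78 to -0.54. *Glul* and *Slc1a2* were called in all 15 alternatives and *Oat* in 14, but the 5 calls became 3 in each fit with 1 library left out other than TRIM24 C52/55A replicate 3, which gave 6. The pericentral list summed to 4182 to 5478 FPKM in WT and 2689 to 3278 FPKM in TRIM24 C52/55A livers, which did not overlap. Whether *Cdh1* moved with the zones was not tested.

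The oncofetal markers were at low levels in all 6 livers. *Afp* (ENSMUSG00000054932, chr5:90490737-90515931), which codes for the main serum protein of the fetus, had 0.765, 0.236 and 0.289 FPKM in WT and 0.336, 0.512 and 0.709 FPKM in TRIM24 C52/55A livers. The groups overlapped, and the highest of the 6 values was in WT replicate 1. The means were 0.430 ± 0.291 and 0.519 ± 0.187 FPKM (SD, n = 3 each; exact two-sided permutation test, p = 0.7). Its interval in the files ends beyond the annotated end of the gene, 90508907 in GENCODE M21, and the same holds for *Gpc3* (52613950) and *Igf2* (142666816).

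*H19* (ENSMUSG00000000031, chr7:142575529-142578143), an imprinted RNA with no protein, had 0.357, 0.362 and 0.118 FPKM in WT and 0.316, 0.174 and 0.389 FPKM in TRIM24 C52/55A livers. The groups overlapped over most of their range (exact two-sided permutation test, p = 0.8). *Igf2* (ENSMUSG00000048583, chr7:142650766-142670356), the fetal growth factor whose imprint is shared with *H19*, had 0.294, 0.366 and 0.240 FPKM in WT and 0.733, 0.141 and 0.317 FPKM in TRIM24 C52/55A livers. The TRIM24 C52/55A group held both the highest and the lowest value, and the exact two-sided permutation test gave p = 0.8. The 2 imprinted neighbours did not have their highest values in the same liver. Of the 50-base runs of *Igf2* transcripts, 61.2% also occur in *Gm49394*, which is listed in no library. *Igf2os*, listed with the same interval as *Igf2*, was at 0 except for 0.0120 FPKM in TRIM24 C52/55A replicate 3.

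*Gpc3* (ENSMUSG00000055653, chrX:52272426-52619047), a heparan sulphate proteoglycan of the cell surface used to diagnose hepatocellular carcinoma, had 0.606, 0.351 and 1.12 FPKM in WT and 0.379, 0.941 and 0.925 FPKM in TRIM24 C52/55A livers. Both groups spanned a low and a high liver. Its log2 fold change was 0.05 (95% confidence interval -0.40 to 0.51), with an adjusted p of 0.907 from limma. The interval includes both a fall and a rise on this scale, and the sign turned to -0.10 without WT replicate 2, -0.03 without TRIM24 C52/55A replicate 2 and -0.02 without TRIM24 C52/55A replicate 3. *Gm14582*, listed with the same interval, had 0.0870 FPKM in TRIM24 C52/55A replicate 1 and was at 0 in the other libraries.

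By the step between low values, 1 fragment per kilobase was worth 0.0601 to 0.0628 FPKM in the 6 libraries (0.0608 to 0.0641 FPKM when values were taken from a wider window). These are rough estimates of depth. Over the longest transcript of each gene, the *Afp* values stand for about 8.08 to 25.8 fragments, *H19* for 4.36 to 14.2, *Igf2* for 10.8 to 56.0 and *Gpc3* for 12.9 to 40.3. *Epcam* and *Krt19* rest on as few, 9.02 to 46.9 and 10.3 to 31.6. By comparison, *Lgals1* stands for 157 to 724 fragments and *Cdh1* for 227 to 1460.

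Other fetal and oncofetal genes were mostly as low. Of 18 such genes besides the markers, 16 were listed and 9 were tested. Of the 9, 2 were called, or 22.2%, beside 7.72% of all genes tested. *Meg3*, an imprinted RNA with no protein, had 0.318, 0.398 and 0.878 FPKM in WT and 1.68, 2.28 and 2.95 FPKM in TRIM24 C52/55A livers. The groups did not overlap, and *Meg3* rose by 1.11 on the log2 scale (standard error 0.18, adjusted p = 0.0127 from limma; called in 13 of 15 alternatives, and not without WT replicate 1). *Ly6d*, a small membrane protein, fell from 4.13 ± 1.37 to 1.10 ± 0.993 FPKM (SD, n = 3 each), with a log2 fold change of -1.35 (adjusted p = 0.040 from limma; called in 4 of 15 alternatives, and with 1 library left out only without TRIM24 C52/55A replicate 3). Without TRIM24 C52/55A replicate 2, 1 of the 9 was called, *Meg3*. The medians of the 9 tested and of all genes were -0.09 and -0.08, and that of the 5 averaging 1 FPKM or more was 0.50.

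Among 15 factors that repress or activate fetal liver genes, 1 was called, or 6.67%, beside 7.72% of all genes tested, and the median log2 fold change was 0.06. *Cebpb*, a transcription factor of the acute-phase response, fell from 22.2 ± 4.76 to 11.3 ± 3.44 FPKM (SD, n = 3 each), with a log2 fold change of -0.94 (adjusted p = 0.0428 from limma; called in 5 of 15 alternatives, and with 1 library left out only without TRIM24 C52/55A replicate 2 or 3). Of 10 tested genes of the IGF2 system, which covers its receptors and binding proteins, 0 were called. An unadjusted p under 0.05 was found for 3, beside 23.6% of all genes tested, and the median log2 fold change was -0.18. Without TRIM24 C52/55A replicate 2, 1 was called, *Igfals* at 0.51. *Igfbp1*, an insulin-repressed binding protein, had the largest change of the list, with 68.6, 145.6 and 57.4 FPKM in WT and 37.2, 41.3 and 18.8 FPKM in TRIM24 C52/55A livers. The groups did not overlap, and the log2 fold change was -1.41 (adjusted p = 0.0611 from limma; 0.0422 with TPM). *Igfbp4* and *Igfbp2*, the binding proteins of highest level, had log2 fold changes of -0.27 (adjusted p = 0.135) and 0.43 (adjusted p = 0.351, limma).

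**Figure D3:**
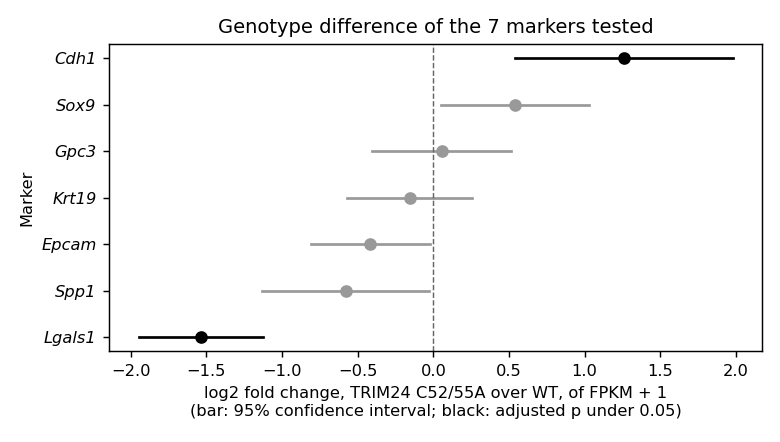
Log2 fold change (TRIM24 C52/55A over WT, on FPKM + 1) and 95% confidence interval of the 7 markers that passed the filter on low values. *Cdh1* at 1.26 and *Lgals1* at -1.54 (black) had an adjusted p under 0.05. No interval is adjusted, and those of *Spp1*, *Epcam* and *Sox9* also leave out 0, though their adjusted p was over 0.05.

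None of the 4 biliary and progenitor markers was called, and the groups overlapped for each. *Spp1* (ENSMUSG00000029304, chr5:104435118-104441050) makes osteopontin, a secreted ligand of integrins and CD44 that bile ducts, macrophages and many tumours release. It had 48.6, 25.6 and 29.1 FPKM in WT and 19.2, 28.4 and 18.96 FPKM in TRIM24 C52/55A livers. WT replicate 1 stood highest, and TRIM24 C52/55A replicate 2 lay between WT replicates 2 and 3, so the groups overlapped. The log2 fold change was -0.58 (95% confidence interval -1.13 to -0.03), with p = 0.0418 before and 0.192 after adjustment (limma); the exact two-sided permutation test gave p = 0.2. Without TRIM24 C52/55A replicate 2 the log2 fold change was -0.76 and the adjusted p was 0.0905 (limma), and without WT replicate 1 it was -0.31. *Gm42793*, listed with the same interval, had 0.0678 FPKM in WT replicate 3 and was at 0 in the other libraries.

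*Sox9* (ENSMUSG00000000567, chr11:112782224-112787760) is the transcription factor that specifies bile duct cells. It had 2.23, 1.25 and 1.17 FPKM in WT and 3.18, 3.24 and 1.73 FPKM in TRIM24 C52/55A livers. TRIM24 C52/55A replicates 1 and 2 were above every WT liver, and replicate 3 was below WT replicate 1. The log2 fold change was 0.54 (95% confidence interval 0.05 to 1.03), with p = 0.0353 before and 0.174 after adjustment (limma), and the exact two-sided permutation test gave p = 0.2. The adjusted p ranged from 0.0587 to 0.427 over the alternatives, with log2 fold changes of 0.43 to 0.78.

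*Epcam* (ENSMUSG00000045394, chr17:87635979-87651106), an adhesion molecule of bile ducts and of hepatic progenitors, had 1.40, 0.604 and 0.772 FPKM in WT and 0.273, 0.625 and 0.391 FPKM in TRIM24 C52/55A livers. TRIM24 C52/55A replicate 2 was slightly above WT replicate 2, and the groups overlapped there alone. The log2 fold change was -0.42 (95% confidence interval -0.81 to -0.02), with p = 0.0408 before and 0.190 after adjustment (limma; exact two-sided permutation test, p = 0.2). The knockin mean of *Epcam*, 0.430 FPKM, was under the filter of 0.5, and only the higher control mean, 0.927, brought the gene into the limma fit. Its entry thus depended on the difference being tested, and no fall is concluded from that fit. Without WT replicate 1 the log2 fold change was -0.25, and with a pseudocount of 0.1 it was -0.93.

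*Krt19* (ENSMUSG00000020911, chr11:100140810-100148665), the keratin of bile duct and also of mesothelial cells, had 1.01, 0.747 and 0.876 FPKM in WT and 0.404, 1.24 and 0.515 FPKM in TRIM24 C52/55A livers. The TRIM24 C52/55A group held both extremes, with replicate 2 above every other liver. The log2 fold change was -0.16 (95% confidence interval -0.57 to 0.25), with an adjusted p of 0.659 from limma. Without TRIM24 C52/55A replicate 2 it was -0.36 (adjusted p = 0.103, limma), and without replicates 1 and 3 of that genotype in turn it was -0.03 and -0.08.

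TRIM24 C52/55A replicate 2 stood apart in some genes of cells outside the liver's parenchyma. The summed FPKM of 8 mesothelial genes was 5.10 in that library, against 1.63 to 3.28 in the WT libraries and 1.43 and 2.03 in the other TRIM24 C52/55A libraries, and the second highest sum was that of WT replicate 1. Of the 8 genes, 3 were tested, with a median log2 fold change of -0.07, 0 called by limma and 0 at an unadjusted p under 0.05. *Adipoq*, the adipocyte hormone adiponectin, was at 4.55 FPKM in that library, 0.127 in WT replicate 3 and 0 in the other 4; it was chosen after its values were seen. The list of 10 adipocyte genes as a whole did not stand higher there: its sum was lowest in that library, at 1506 FPKM, against 1924 to 2297 FPKM in WT and 1956 and 2147 FPKM in the other TRIM24 C52/55A livers. Most of each sum was *Car3*, which had 1436 FPKM in TRIM24 C52/55A replicate 2. The list held *Cidec* and *Plin4*, which coat lipid droplets also in fatty hepatocytes, called lower at log2 fold changes of -2.36 and -1.26. These were 2 of the 8 tested, beside 6.09% of all genes called lower, and the median of the 8 was -0.16. That median rests on TRIM24 C52/55A replicate 2, through which 3 of the 8 passed the filter: without it 5 were tested, all below 0, with a median of -1.48. Neither was called with no filter or without WT replicate 1, WT replicate 3 or TRIM24 C52/55A replicate 1, and 4 genes were called without TRIM24 C52/55A replicate 2, with *Cfd* and *Fabp4* also lower. Of the 10 markers, 6 had their highest TRIM24 C52/55A value in replicate 2: *Gpc3*, *Spp1*, *Sox9*, *Epcam*, *Krt19* and *Cdh1*. For *Gpc3* (0.941 and 0.925 FPKM) and *Sox9* (3.24 and 3.18 FPKM) the next replicate was close. The matching share over all genes was not counted, so this is not shown to be particular to the markers. Without TRIM24 C52/55A replicate 2, *Lgals1* had a log2 fold change of -1.37 and stayed called, and *Cdh1* had one of 0.995 (adjusted p = 0.0821, limma) and did not. The part of mesothelial and adipocyte RNA in these values was not tested.

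The wider list of cholangiocyte and progenitor genes, without the markers, gave no call. Of 20 genes, 9 were tested, 0 were called by limma and 1 had an unadjusted p under 0.05, with a median log2 fold change of -0.02. *Aqp1* and *Anxa4*, its most abundant members, had log2 fold changes of -0.02 and -0.20. *Krt7*, *Cftr* and *Prom1* were among the 11 under the filter. The list summed to 83.7 to 101 FPKM in WT and 84.2 to 104 FPKM in TRIM24 C52/55A livers. Receptors of osteopontin were likewise uncalled, at 0 of 8 with 1 at an unadjusted p under 0.05 and a median of -0.11: *Itgb1* had a log2 fold change of -0.04, and *Itgb5* one of -0.34 (adjusted p = 0.0734, limma). *Itgb5* alone was called without TRIM24 C52/55A replicate 2, at -0.40 (adjusted p = 0.0410, limma). Their sum was 88.6 to 91.0 FPKM in WT and 80.0 to 82.8 FPKM in TRIM24 C52/55A livers.

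Notch and YAP signalling act upstream of *Sox9* and *Spp1* in bile duct cells. Of 17 such genes tested, with a median log2 fold change of -0.08, 1 was called, or 5.88%, beside 7.72% of all genes tested. This gene, *Wwtr1*, which codes for the YAP partner TAZ, fell by 0.51 on the log2 scale (standard error 0.10, adjusted p = 0.0189 from limma). It was called in 10 of 15 alternatives, and not without WT replicate 1, WT replicate 3 or TRIM24 C52/55A replicate 1. Without TRIM24 C52/55A replicate 2, 2 were called, as *Ctgf*, a target of YAP, joined it at -1.54, in a fit that called 10.5% of all genes. Cell cycle genes, which tumours raise, were read in the same way. Of 14 tested, 1 was called, beside 7.72% of all genes, 9 had an unadjusted p under 0.05, beside 23.6%, and 13 lay below 0, beside 65.5%. With TPM 6 were called, in a fit that called 1488 of 13062 genes, and with no filter 2 were. The list had a median log2 fold change of -0.36, and with median-of-ratios scaling 11 of 13 and with quantile normalization 12 of 14 lay below 0. *Rrm2*, a subunit of ribonucleotide reductase, had 2.81, 2.76 and 2.60 FPKM in WT and 0.971, 1.31 and 1.37 FPKM in TRIM24 C52/55A livers. The groups did not overlap, and *Rrm2* fell by 0.75 on the log2 scale (adjusted p = 0.00804 from limma; called in all 15 alternatives). The 18 cell cycle genes listed summed to 51.4 to 54.2 FPKM in WT and 36.5 to 42.6 FPKM in TRIM24 C52/55A livers, and *Mki67* was under the filter.

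**Figure D4:**
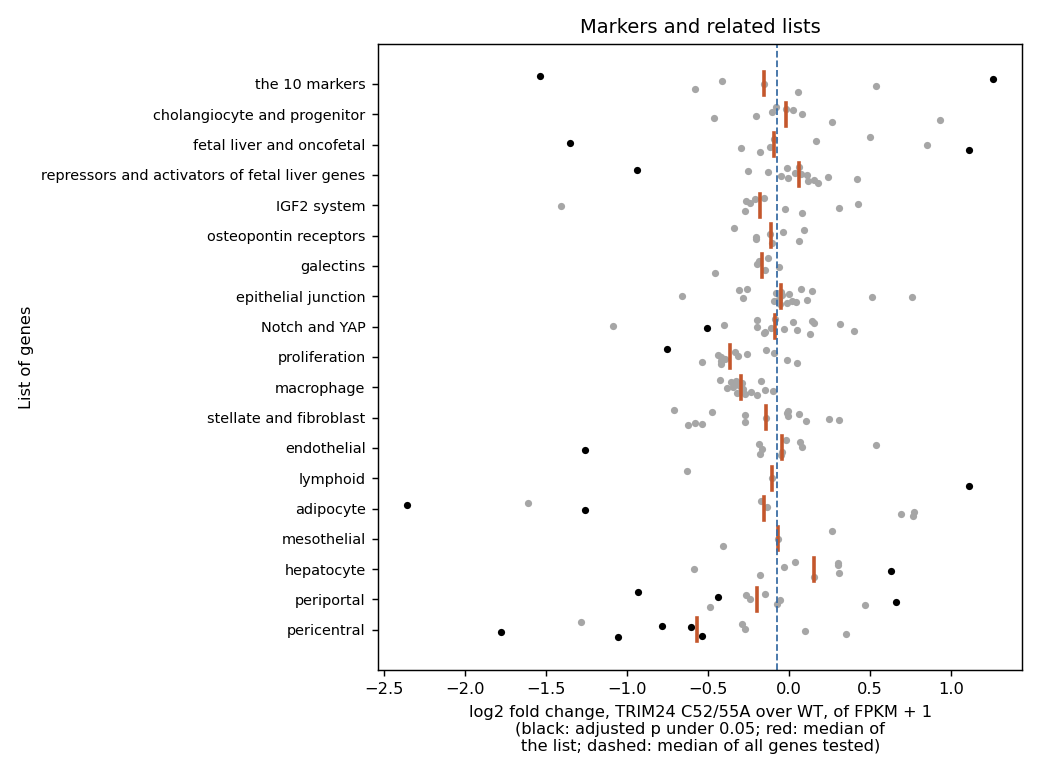
Log2 fold changes (horizontal axis, TRIM24 C52/55A over WT, on FPKM + 1) of the tested genes of the 10 markers and of 18 related lists. Each point is 1 gene, black where its adjusted p is under 0.05, each red bar is the median of the list, and the dashed line is the median of all genes tested, -0.08. *Cdh1* and *Lgals1* lie at the ends of the first row, and the pericentral list holds 5 of the 18 called genes of the related lists.

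Over the 18 related lists together, 193 genes were tested and 18 were called, 4 higher and 14 lower, or 9.33% beside 7.72% of all genes tested; without TRIM24 C52/55A replicate 2, 37 were called, in a fit that called 10.5% of all genes. The sign of a median near 0 was not stable. With median-of-ratios scaling and quantile normalization the medians turned to 0.07 and 0.07 for cholangiocyte, 0.05 and 0.06 for endothelial and 0.01 and 0.02 for Notch and YAP genes. With 1 library left out the sign also turned for the cholangiocyte, Notch and YAP, adipocyte, lymphoid and mesothelial lists, and for the markers, at 0.08 without TRIM24 C52/55A replicate 1. Besides those named above, *Cd4*, the T helper cell co-receptor that some macrophages also carry, rose by 1.11 on the log2 scale (adjusted p = 0.00108, limma). With a pseudocount of 0.1 its log2 fold change was 2.11, so the size of this change depended on how low values were treated. Of the 10 lymphoid genes 7 were under the filter, and the median of the 3 tested was -0.11. Without TRIM24 C52/55A replicate 2, 2 were called, with *Igkc* at -0.76. Hepatocyte genes were high in every library, and of 9 tested, with a median of 0.15, only *Cps1*, the first enzyme of the urea cycle, was called, with a log2 fold change of 0.63 (adjusted p = 0.0281, limma). *Cps1* was called in 9 of 15 alternatives and, with 1 library left out, only without TRIM24 C52/55A replicate 2, when *Tat* was also called, at -0.81. The median turned to -0.08 with quantile normalization, and 3 of the 9 were called with median-of-ratios scaling.

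FPKM are scaled to length, so the markers can be ranked within a liver. In WT livers the order of means was *Lgals1*, *Spp1*, *Cdh1*, *Sox9*, *Epcam*, *Krt19*, *Gpc3*, *Afp*, *Igf2* and *H19*. Only 2 pairs of neighbours in that order did not overlap between libraries, *Spp1* with *Cdh1* and *Cdh1* with *Sox9*. In TRIM24 C52/55A livers *Spp1*, *Lgals1* and *Cdh1* led, at means of 22.2, 15.9 and 14.5 FPKM, and each overlapped the next. *Cdh1* and *Sox9* did not overlap there, nor did *Sox9* and *Gpc3*. In both genotypes 6 markers, *Afp*, *Gpc3*, *H19*, *Igf2*, *Krt19* and *Epcam*, stayed under 1.5 FPKM in every library.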

How the data were processed

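For each of 6 livers the authors deposited 1 table of FPKM per gene, which lists only genes above 0; a gene without a row was set to 0. The submitters' processing notes name bcl2fastq, Salmon 0.14.0, DESeq2 1.30.0 and GRCm38, and the step that made the FPKM is not given in the sources used here. Groups and replicate numbers are those of the labels. FPKM summed to 644619 to 648221 in WT and 673244 to 676791 in TRIM24 C52/55A libraries, with 17709 to 17984 genes listed. These sums are not depths. Fragment numbers are estimates from the step between low values, and FPKM keep no counts.

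*Trim24* had a log2 fold change of 0.14 (adjusted p = 0.713, limma), which does not check the labels, since the knockin changes codons only. Genes averaging 0.5 FPKM or more were log2-transformed after adding 1 and fitted by limma 3.58.1 under R 4.3.3 (lmFit, eBayes with trend), and p-values were adjusted by the Benjamini-Hochberg method over all genes tested. The fit was tested on simulated data. For each marker, FPKM were compared by an exact permutation test (scipy 1.17.1). Tables were handled with pandas 2.3.3 and numpy 2.4.6 in Python 3.11.15, and plots drawn with matplotlib 3.10.9. Replicates are separate mice.

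The markers and the 18 related lists were chosen with earlier results of these data known, and lists are described by counts and medians. The text names the 10 markers, up to 5 called genes of a list or otherwise its 2 of highest FPKM, genes listed with the same interval as a marker, and *Trim24*; genes named as under the filter and *Gm49394* fall outside this rule, and *Adipoq*, *Car3*, *Onecut1*, *Igfbp1*, *Ocln* and the genes named because they were called with a library left out were chosen after their values were seen. Alternatives were a pseudocount of 0.1, no filter, a mean of at least 1 FPKM, TPM, median-of-ratios scaling, quantile normalization, no trend, robust eBayes, a replicate block, and each library left out. Coordinates are those of the files, 1-based. *Alb*, *Igf2bp1*, *Lin28b* and *Lgals6* were not analysed here.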

Additional observations from a re-analysis of the deposited data

How the results depend on the processing

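With 3 mice per group, a difference had to be large against the spread to be called, and the 6 markers under 1.5 FPKM rest on at most about 56.0 fragments in a library. The 2 markers called became 1 (*Lgals1*) with a pseudocount of 0.1, with no filter, with no mean-variance trend and with robust eBayes, and numbered 1 to 2 with 1 library left out. Of 102 marker fold changes under alternatives, 90 kept their direction and side of the threshold, 9, all of *Cdh1*, lost the call, and 3, all of *Gpc3*, reversed, to -0.10 without WT replicate 2, -0.03 without TRIM24 C52/55A replicate 2 and -0.02 when replicate 3 of that genotype was left out (range -0.10 to 0.23 over the 6 libraries). The 944 genes called over the whole table became 347 with no filter, 1488 with TPM and 294 to 1280 with 1 library left out, the lowest without TRIM24 C52/55A replicate 1, the highest with replicate 2 of that group left out. The 18 called genes of the related lists became 6 with no filter, 30 with TPM and 6 to 37 with 1 library left out. Calls split into 200 higher and 744 lower as reported, 249 and 410 with median-of-ratios scaling, 255 and 378 with quantile normalization and 193 and 1295 with TPM. The median log2 fold change of all genes was -0.08 as reported, 0.01 with either of the first 2 scalings and -0.13 with TPM. Same-numbered livers did not deviate together (correlations of -0.12, -0.10 and 0.003 across genes), but with 3 mice per group this cannot exclude a pairing. With a replicate block 578 genes and the same 2 markers were called. The block called 14 genes of the related lists: *Ocln*, *Cldn1*, *Igfbp1* and *Cfd* were gained, and 8 calls were lost, those of *Wwtr1*, *Lyve1*, *Cebpb*, *Ly6d*, *Rhbg*, *Cidec*, *Hsd17b13* and *Aldh1b1*. Except as stated, the cause of these shifts was not tested.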

Other observations

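*Onecut1*, a transcription factor of hepatocyte and bile duct development, measured 1.39, 1.97 and 1.94 FPKM in WT and 2.43, 0.850 and 21.7 FPKM in TRIM24 C52/55A livers (replicates in order). Its log2 fold change of 0.93 (standard error 0.77) had an adjusted p of 0.526 from limma, and the difference rests on TRIM24 C52/55A replicate 3 alone. In that liver *Sox9* was the lowest of the TRIM24 C52/55A group, at 1.73 FPKM, and *Krt19* was at 0.515 FPKM.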
